A study of Mus musculus with 9 samples.

Results

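Tetraspanins are small membrane proteins that cross the plasma membrane several times and hold a large extracellular loop. They bind each other and their partner proteins, among them integrins and immunoglobulin-like receptors, and so arrange these into patches of the membrane. In T cells they are known for roles in adhesion, costimulation and the formation of the immune synapse, and CD9, CD63 and CD81 are the proteins most used to mark extracellular vesicles. The rows examined here are those of 10 tetraspanin genes, Cd9, Cd37, Cd53, Cd63, Cd81, Cd82, Cd151, Tspan9, Tspan13 and Tspan32, taken by symbol. They were chosen with earlier results of these data known, so counts and sums set against other genes are descriptions only. All 10 were found among the 48709 genes of the deposited table, and all 10 were kept by the filter on low values, which asked for a group mean of 1 or more on the table's length-scaled unit (TPM) and left 11971 genes for testing. Cd63 passed it only through the 2 groups given peptide and Tspan9 only through the 2 groups without citraconate.

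RNA was sequenced from mouse CD8+ T cells, the cytotoxic lymphocytes. There were 3 libraries of cells given OVA peptide, a fragment of chicken ovalbumin used as a model antigen, together with citraconate, a small unsaturated dicarboxylate and isomer of itaconate. A further 3 were of cells given OVA peptide alone, and 3 control libraries (labelled CTRL) were of cells without the peptide. Strain, genotype, dose and duration of treatment are unstated in the labels, which call the extracted cells PAS-T cells without defining the term, and no group had citraconate without peptide. Whether replicates come from distinct cultures or mice is also unstated, and the p-values reflect only how these libraries spread, which may be technical.

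Values are TPM, a level per transcript length that is scaled to the same total of 1000000 in every library. Reads assigned to genes, worked back from the table, numbered 14754470 to 17384330 per library. T cell markers (Cd3d, Cd3e, Cd3g, Cd247, Trac, Cd8a, Cd8b1, Thy1, Lck and Cd2) summed to 7895 to 8350 TPM with OVA plus citraconate, 4363 to 5581 TPM with OVA and 8980 to 9441 TPM in control. OVA replicate 2 stood farthest from its group mean, with a root mean square deviation of 0.205 in log2 over all tested genes against 0.134 to 0.182 for the other libraries. It held the lowest level of Cd9, Cd37, Cd53, Cd63, Cd81, Cd82, Tspan13 and Tspan32 in its group and the highest of Cd151 and Tspan9. In bulk RNA, fewer cells of a type and less RNA per cell cannot be told apart.

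The feature that unites the family is a run of codons for 2 cysteines and a glycine in the large loop. In the longest annotated coding sequence of each gene (GENCODE M21, of the older GRCm38 build), all 10 held such a run in frame, starting 55.4% to 65.6% of the way along coding sequences of 615 to 912 bases. Cd9, Cd63 and Cd81 held a second run elsewhere. The stretches below are those of the genes on which the results turn, 5′ to 3′, with the codons for cysteine, cysteine and glycine in capitals.
Cd53: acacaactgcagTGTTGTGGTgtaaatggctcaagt
Cd9: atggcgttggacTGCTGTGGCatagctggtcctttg
Cd81: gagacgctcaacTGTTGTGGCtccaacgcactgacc
Cd63: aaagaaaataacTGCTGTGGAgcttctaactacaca
Tspan9: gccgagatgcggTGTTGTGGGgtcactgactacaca
Tspan32: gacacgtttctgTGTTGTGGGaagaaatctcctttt
The first capital stands at base 430 of the coding sequence in Cd53, 448 in Cd9, 466 in Cd81, 433 in Cd63, 439 in Tspan9 and 463 in Tspan32. Whole coding sequences, this run included, were also aligned in pairs, without unrelated genes for comparison. Over the 45 pairs of members, 55.6% to 63.9% of aligned coding bases were identical, with the highest value between Cd9 and Cd151.

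The 10 transcripts together were most abundant with OVA plus citraconate. They summed to 1302, 1237 and 1339 TPM with OVA plus citraconate, 904, 772 and 984 TPM with OVA, and 978, 986 and 952 TPM in control. The OVA plus citraconate libraries lay above all others, and the OVA libraries overlapped control. Cd53 alone made up 52.6% to 54.6% of that sum with OVA plus citraconate, 59.8% to 66.2% with OVA and 56.4% to 57.4% in control, and it was the most abundant of the 10 in every group. The 21 other tetraspanin genes in the table summed to 295 to 323 TPM with OVA plus citraconate, 308.5 to 334 TPM with OVA and 314 to 322 TPM in control, so their groups overlapped. As the 10 were chosen with earlier results known, the contrast with the other 21 is a description only.

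**Figure D1:**
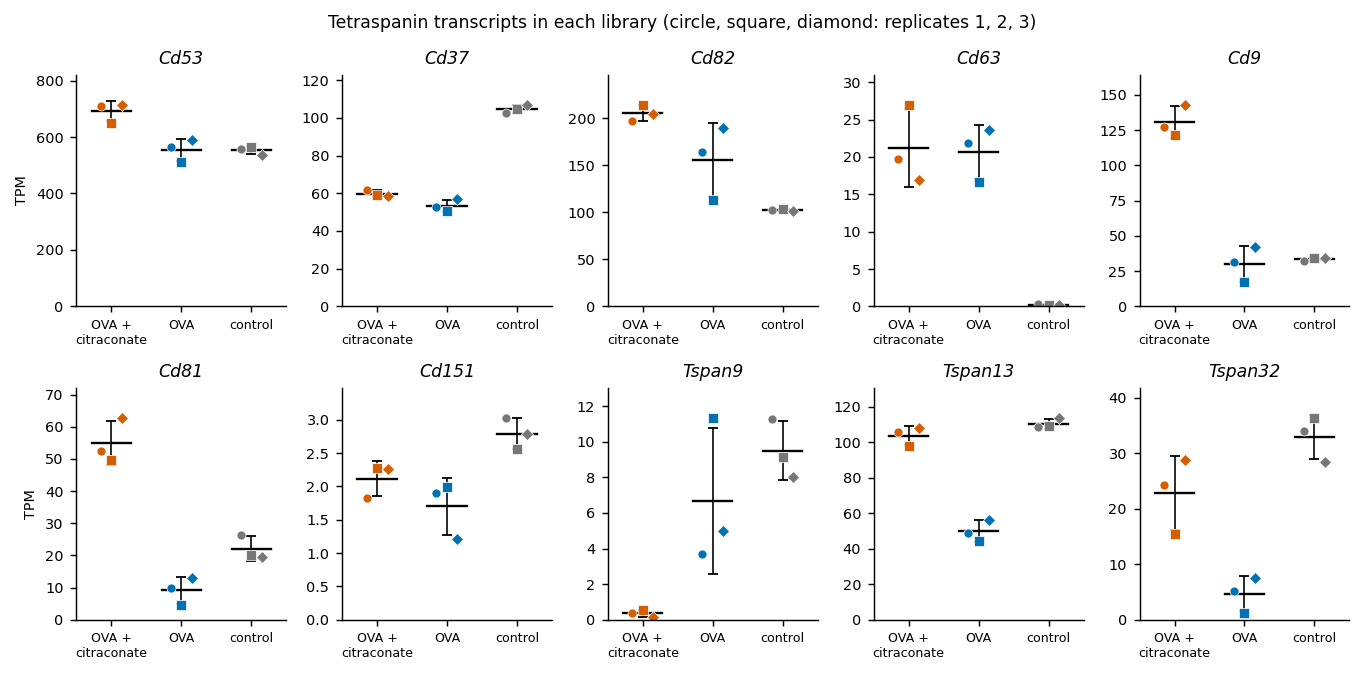
TPM of each tetraspanin (y axis, linear and from 0) in the 3 OVA plus citraconate, 3 OVA and 3 control libraries. Symbols are libraries, the horizontal bar is the group mean and the whisker is 1 SD either way; Cd9 and Cd81 are highest with citraconate, Tspan9 is near 0 there, and Cd63 is near 0 in control.

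Changes were tested with limma on log2(TPM + 1), with Benjamini-Hochberg adjustment over all 11971 genes. Because the median gene differed by a log2 of 0.12 between OVA plus citraconate and OVA, by -0.08 between OVA and control and by 0.04 between OVA plus citraconate and control, log2 changes are given relative to those medians. Adjusted p-values belong to the values before the median is taken off. Folds and fractions of a group mean are plain ratios of mean TPM, also with no median taken off. The log2(TPM + 1) scale understates changes of genes with low levels. The comparisons share groups, so their values are set side by side and are not independent of each other.

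The effect of citraconate beside peptide is read from OVA plus citraconate against OVA. Of the 10 tetraspanins 7 rose (Cd9, Cd37, Cd53, Cd81, Cd82, Tspan13 and Tspan32), 1 fell (Tspan9) and 2 did not pass (Cd63 and Cd151). Of all tested genes 59.0% were called, 37.8% higher and 21.2% lower, so that 64.0% of the calls were increases (49.2% after median-of-ratios scaling, under which 5 of the 10 tetraspanins were called higher and 1 lower). The 2 groups did not overlap for 8 of the 10 (7 higher, 1 lower), against 66.1% of all tested genes (41.9% higher, 24.2% lower). The median log2 change of the 10, which were chosen with earlier results known, was 0.25 above that of all genes. OVA against control asks what the peptide changed: 2 rose (Cd63 and Cd82), 5 fell (Cd37, Cd81, Cd151, Tspan13 and Tspan32) and 3 did not pass, where 71.9% of all tested genes were called, 32.1% higher and 39.8% lower. These 2 groups did not overlap for 7 of the 10 (2 higher, 5 lower), against 75.0% of all tested genes (33.7% higher, 41.3% lower). In OVA plus citraconate against control 5 rose (Cd9, Cd53, Cd63, Cd81 and Cd82), 2 fell (Cd37 and Tspan9) and 3 did not pass, where 59.4% of all tested genes were called, 33.1% higher and 26.3% lower. Here the groups did not overlap for 9 of the 10 (5 higher, 4 lower), against 67.4% of all tested genes (37.3% higher, 30.1% lower).

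**Figure D2:**
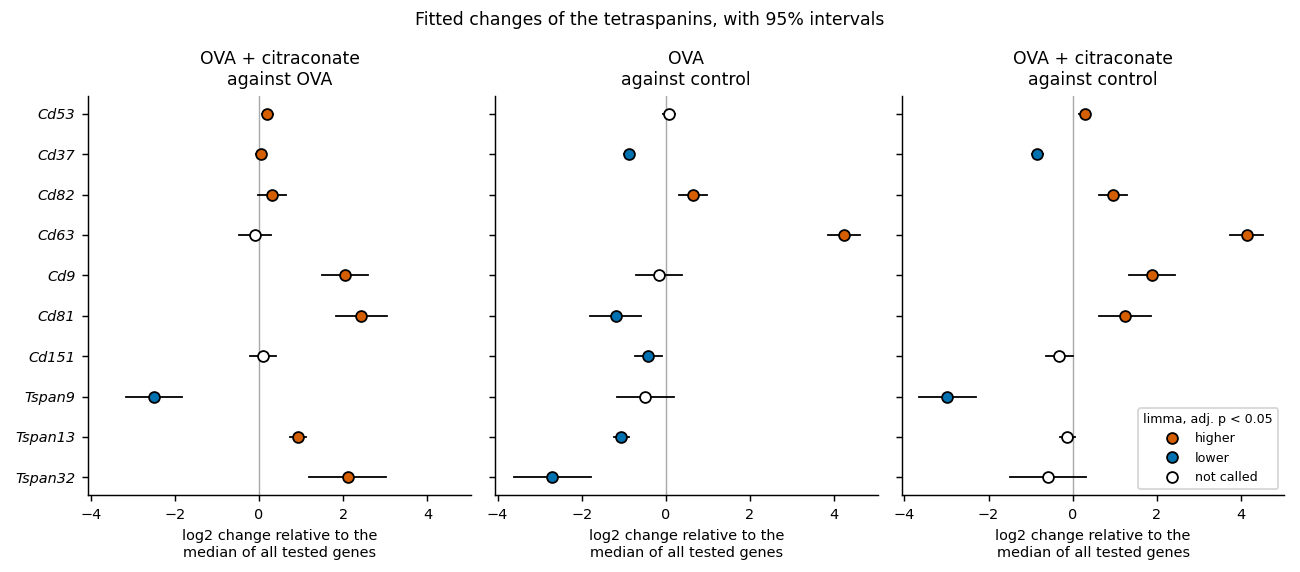
Log2 change of each tetraspanin relative to the median of all tested genes (x axis) in the 3 comparisons, with 95% intervals from limma; fill gives the call before the median is taken off. Relative to the median, the intervals of Cd37 (-0.08 to 0.16) and Cd82 (-0.02 to 0.63) reach 0 in OVA plus citraconate against OVA.

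Cd9 and Cd81 encode closely associated tetraspanins of lymphocytes that bind integrins and the immunoglobulin-like EWI proteins. CD81 can costimulate T cells, as can CD9. Cd9 stood at 127, 121 and 143 TPM with OVA plus citraconate, 31.2, 16.95 and 42.2 TPM with OVA, and 32.1, 34.5 and 34.4 TPM in control. The citraconate libraries did not overlap either other group, while OVA overlapped control. Cd9 rose 4.34-fold with OVA plus citraconate against OVA (log2 2.04 ± 0.24, SE; limma adjusted p = 6.01e-05) and 3.88-fold against control (log2 1.88 ± 0.24; limma adjusted p = 9.1e-05). OVA against control did not pass for Cd9 (log2 -0.17, 95% interval -0.71 to 0.38; limma adjusted p = 0.384). That value turned on single libraries: before the median is taken off it was 0.11 without OVA replicate 2 and -0.53 without OVA replicate 3, where it was called (limma adjusted p = 0.0335).

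Cd81 stood at 52.4, 49.6 and 62.7 TPM with OVA plus citraconate, 9.84, 4.66 and 13.0 TPM with OVA, and 26.5, 20.2 and 19.55 TPM in control. The 3 groups did not overlap, with OVA lowest and OVA plus citraconate highest. Cd81 rose 5.99-fold with OVA plus citraconate against OVA (log2 2.43 ± 0.27, SE; limma adjusted p = 4.67e-05). It fell with OVA to 0.415 of the control mean (log2 -1.19 ± 0.27; limma adjusted p = 0.00184), and OVA plus citraconate was 2.49-fold above control (log2 1.24 ± 0.27; limma adjusted p = 0.00241). Reads for the gene numbered 847 to 1167 per library with OVA plus citraconate, 86 to 259 with OVA and 357 to 441 in control.

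Cd9 and Cd81 were, with Cd53 and Cd82, the 4 tetraspanins called higher with OVA plus citraconate than in both other groups, a pattern found in 12.6% of all tested genes (16.0% where only ranges are compared). The start regions of Cd9 and Cd81 are shown because these genes had the largest changes of the 4, and that of Tspan32 because it lies near Cd81 on chromosome 7 but had another pattern. They are RefSeq sequences of the GRCm38.p6 build, 250 bases before to 50 after the annotated start, with matches to GGGCGG, the core of the binding motif of SP1 and related factors, and to TATAAA, the TATA box, on either strand in capitals.
Cd9, chr6:125494711-125495010, minus strand: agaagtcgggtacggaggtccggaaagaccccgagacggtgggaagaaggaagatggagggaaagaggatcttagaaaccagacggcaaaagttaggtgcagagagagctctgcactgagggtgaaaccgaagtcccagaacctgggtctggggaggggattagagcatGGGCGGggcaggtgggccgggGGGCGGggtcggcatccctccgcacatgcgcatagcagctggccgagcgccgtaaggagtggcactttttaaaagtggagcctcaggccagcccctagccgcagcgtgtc
Cd81, chr7:143052500-143052799, plus strand: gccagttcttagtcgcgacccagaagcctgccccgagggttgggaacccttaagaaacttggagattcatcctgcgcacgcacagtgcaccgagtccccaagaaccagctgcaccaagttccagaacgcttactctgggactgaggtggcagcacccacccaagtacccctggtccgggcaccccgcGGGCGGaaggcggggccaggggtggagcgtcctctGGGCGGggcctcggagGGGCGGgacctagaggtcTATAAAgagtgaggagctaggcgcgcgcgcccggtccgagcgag
Tspan32, chr7:143004796-143005095, plus strand: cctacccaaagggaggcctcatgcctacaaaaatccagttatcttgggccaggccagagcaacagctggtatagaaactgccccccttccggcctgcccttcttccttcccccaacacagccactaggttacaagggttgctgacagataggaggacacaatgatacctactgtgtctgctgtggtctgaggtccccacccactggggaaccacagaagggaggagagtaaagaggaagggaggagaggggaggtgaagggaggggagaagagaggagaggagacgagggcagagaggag
GGGCGG matched 2 times in the Cd9 window and 3 times in the Cd81 window, TATAAA matched in the Cd81 window, and the Tspan32 window held neither. Over the 17 windows that RefSeq gives for the 10 genes, GGGCGG was found in 9, against 35.7% of all 32851 windows of 300 bases. TATAAA was found in 1 of the 17 (13.6% of all windows), the E-box CACGTG in 1, that of Cd37 (7.15%), TGACNNNGC, the core of the NRF2 motif, in 2, of Cd82 and Tspan9 (12.4%), and the TCF motif CTTTGAT in 0 (3.73%). The motifs do not overlap each other in the windows shown, and a match is a description of the letters only.

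Tspan32 and Tspan13 were low in cells given OVA alone. TSPAN32 (TSSC6) is a tetraspanin of blood cells whose loss in mice increases T cell proliferation. Tspan32 stood at 24.2, 15.5 and 28.7 TPM with OVA plus citraconate, 5.22, 1.26 and 7.51 TPM with OVA, and 34.0, 36.3 and 28.5 TPM in control. The OVA libraries lay below all others, and the OVA plus citraconate libraries overlapped control. Tspan32 rose 4.89-fold with OVA plus citraconate against OVA (log2 2.11 ± 0.41, SE; limma adjusted p = 0.00103) and fell with OVA to 0.142 of the control mean (log2 -2.70 ± 0.41; limma adjusted p = 0.000141). OVA plus citraconate against control did not pass for Tspan32 (log2 -0.58, 95% interval -1.50 to 0.33; limma adjusted p = 0.274). It was called lower at the same value, -0.55 before the median is taken off, when OVA replicate 2 was left out of the pooled spread (limma adjusted p = 0.0376) or when only the 2 groups compared were fitted (limma adjusted p = 0.0382). OVA replicate 2 held 23 reads for the gene.

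Tspan13 stood at 106, 97.5 and 108 TPM with OVA plus citraconate, 49.0, 44.0 and 56.3 TPM with OVA, and 108, 109 and 113.5 TPM in control. The OVA libraries lay below all others, at 0.452 of the control mean. Tspan13 rose 2.08-fold with OVA plus citraconate against OVA (log2 0.93 ± 0.08, SE; limma adjusted p = 9.73e-06) and fell with OVA against control (log2 -1.06 ± 0.08; limma adjusted p = 9.06e-07). OVA plus citraconate against control did not pass (log2 -0.13, 95% interval -0.31 to 0.05; limma adjusted p = 0.368). With Cd37 and Cd81, Tspan13 and Tspan32 made up the 4 tetraspanins called lower with OVA against control and higher with OVA plus citraconate against OVA, as were 26.0% of all tested genes. Most T cell markers followed the same course. With OVA against control 9 of 10 fell, where 39.8% of all tested genes were called lower. With OVA plus citraconate against OVA 9 of 10 rose, where 37.8% of all tested genes were called higher. Thy1 was called in neither, at 2640, 2736 and 2662 TPM with OVA plus citraconate, OVA and control. The part of the T cell markers in the values of the tetraspanins was not tested.

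Tspan9, a tetraspanin known from platelets and megakaryocytes, went the other way. It stood at 0.402, 0.542 and 0.155 TPM with OVA plus citraconate, 3.694, 11.3 and 4.997 TPM with OVA, and 11.3, 9.15 and 8.03 TPM in control. The citraconate libraries lay below all others, with 5 to 16 reads each against 120 to 361 with OVA and 277 to 325 in control. Tspan9 fell with OVA plus citraconate against OVA (log2 -2.50 ± 0.30, SE; limma adjusted p = 0.000115) and against control (log2 -2.98 ± 0.30; limma adjusted p = 2.02e-05). Counted in reads, the OVA plus citraconate libraries held 0.0537 of the OVA level, with a 95% exact interval of 0.0367 to 0.0762 that covers counting error only. OVA replicate 2 held 361 of the 653 OVA reads, and without it, a setting added after seeing the data, the ratio was 0.0811 (0.0548 to 0.1165). It was the only one of the 10 called lower with OVA plus citraconate than in both other groups, as were 5.31% of all tested genes (6.63% where only ranges are compared). Tspan9 did not pass in OVA against control (log2 -0.49, 95% interval -1.16 to 0.18; limma adjusted p = 0.114). OVA replicate 2 stood at the control level, and without it the gene was called lower (-0.97 before the median is taken off; limma adjusted p = 0.000894). Of the platelet markers, Ppbp, Gp9 and Gp6 were listed at 0 in every library, and the group means of Pf4, Itga2b and Gp1bb were at most 0.299 TPM. Gp1ba averaged 1.08 ± 0.0241 TPM with OVA plus citraconate, 0.147 ± 0.0812 TPM with OVA and 0.660 ± 0.0744 TPM in control (SD, n = 3). It was called higher with OVA plus citraconate against OVA (limma adjusted p = 0.000265), from 54 reads in all against 8. Because Gp1ba passed the filter on low values only through OVA plus citraconate, that call follows in part from its being tested. The part of platelet markers in the value of Tspan9 was not tested.

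Cd63 was close to 0 in control. CD63 is the tetraspanin of late endosomes, lysosomes and cytotoxic granules and reaches the surface when granules are released. Cd63 stood at 19.7, 27.0 and 16.95 TPM with OVA plus citraconate, 21.8, 16.65 and 23.55 TPM with OVA, and 0.335, 0.158 and 0.140 TPM in control. The 2 groups given peptide overlapped each other, and both lay far above control. Control held 2, 1 and 1 reads for the gene, against 113 to 165 per library with OVA plus citraconate and 110 to 168 with OVA. Cd63 rose with OVA against control (log2 4.23 ± 0.17, SE; limma adjusted p = 3.36e-08), a ratio of reads of 104 with a 95% exact interval of 40.2 to 383 that covers counting error only. It rose likewise with OVA plus citraconate against control (log2 4.14 ± 0.17; limma adjusted p = 5.38e-08), and OVA plus citraconate against OVA did not pass (log2 -0.10, 95% interval -0.49 to 0.29; limma adjusted p = 0.916). Cd63 has a processed pseudogene, Cd63-ps, which was listed at 0 in every library; how reads common to both were divided is not known, so the level of Cd63 is uncertain. Natural killer markers (Ncr1, Klrb1c, Klra4, Klra8, Klre1, Klri2 and Fcgr3) summed to 63.6 to 78.9 TPM with OVA plus citraconate, 169.5 to 237 TPM with OVA and 8.48 to 10.9 TPM in control, with Ncr1 listed at 0 in control. Their part in the value of Cd63 was not tested.

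Cd82, which encodes a tetraspanin known as a metastasis suppressor, was the other member that rose in both peptide groups. It stood at 197, 214 and 205 TPM with OVA plus citraconate, 164, 113 and 189 TPM with OVA, and 102, 104 and 101 TPM in control. The 3 groups did not overlap. Cd82 was 1.52-fold higher with OVA than in control (log2 0.65 ± 0.15, SE; limma adjusted p = 0.00534) and 2.01-fold higher with OVA plus citraconate than in control (log2 0.96 ± 0.15; limma adjusted p = 0.000227). The step from OVA to OVA plus citraconate was 1.32-fold (log2 0.31 ± 0.15; limma adjusted p = 0.0277). The call of that step was lost under 7 of 20 other settings, such as median-of-ratios scaling (limma adjusted p = 0.0922) and without OVA plus citraconate replicate 2 (0.0713) or 3 (0.0640). Without OVA replicate 2 the value before the median is taken off was 0.22 in place of 0.43.

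Cd53 and Cd37 encode tetraspanins found mainly on white blood cells, and loss of CD37 in mice makes T cells divide more readily. Cd53 stood at 711, 650.2 and 714 TPM with OVA plus citraconate, 564, 511 and 589 TPM with OVA, and 558, 566 and 537 TPM in control. The citraconate libraries lay above both other groups, which overlapped. Cd53 rose 1.25-fold with OVA plus citraconate against OVA (log2 0.20 ± 0.06, SE; limma adjusted p = 0.0014) and against control (log2 0.28 ± 0.06; limma adjusted p = 0.00132), while OVA against control did not pass (log2 0.08, 95% interval -0.06 to 0.22; limma adjusted p = 0.996).

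Cd37 stood at 61.7, 59.0 and 58.7 TPM with OVA plus citraconate, 52.4, 50.7 and 57.0 TPM with OVA, and 103, 105 and 107 TPM in control. Both peptide groups lay below control, with OVA below OVA plus citraconate. Cd37 fell with OVA to 0.509 of the control mean (log2 -0.88 ± 0.05, SE; limma adjusted p = 2.25e-07) and with OVA plus citraconate to 0.571 (log2 -0.84 ± 0.05; limma adjusted p = 1.42e-06). The small rise with OVA plus citraconate against OVA (log2 0.04 ± 0.05; limma adjusted p = 0.0271) was lost under 9 of 20 other settings, such as median-of-ratios scaling (limma adjusted p = 0.645) and leaving out OVA plus citraconate replicate 1 (0.0923), OVA replicate 1 (0.078) or OVA replicate 2 (0.0921). B cell markers (Ms4a1, Cd79a, Cd79b, Pax5, Ighm, Ighd, Igkc, Cr2 and Fcer2a) summed to 55.9 to 88.75 TPM with OVA plus citraconate, 58.3 to 88.6 TPM with OVA and 226 to 261 TPM in control. Ighm averaged 74.4 TPM with OVA plus citraconate, 28.4 TPM with OVA and 214 TPM in control. Igkc ran differently, at 0.727, 42.05 and 16.9 TPM in the same order, and was called higher with OVA against control (limma adjusted p = 0.00214). Ms4a1 averaged 0.0240 TPM with OVA and 0.165 TPM in control and was listed at 0 with OVA plus citraconate. Cd79b averaged 0.234 TPM with OVA plus citraconate, 0.531 TPM with OVA and 11.9 TPM in control, and Cd79a 0.115, 0.240 and 1.77 TPM. Of the 5 tested B cell markers 4 fell and 1 rose with OVA against control, and 5 fell with OVA plus citraconate against control. Cd79a, Cd79b and Ighd passed the filter on low values only through control, so their falls follow in part from being tested. Of all tested genes 39.8% and 26.3% were called lower in these comparisons. The part of the B cell markers in the value of Cd37 was not tested.

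Cd151, a partner of laminin-binding integrins, was scarce in all groups. It stood at 1.82, 2.28 and 2.26 TPM with OVA plus citraconate, 1.90, 1.99 and 1.21 TPM with OVA, and 3.03, 2.56 and 2.79 TPM in control, from 23 to 53 reads per library. It fell with OVA against control (log2 -0.42 ± 0.14, SE; limma adjusted p = 0.00944), a call lost with quantile normalization (0.0683). Neither OVA plus citraconate against OVA (log2 0.09, 95% interval -0.23 to 0.41; limma adjusted p = 0.215) nor against control (log2 -0.32, 95% interval -0.64 to -0.00; limma adjusted p = 0.112) passed.

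The order of the levels differed between groups. With OVA plus citraconate it ran from Cd53 (692 TPM) through Cd82 (205), Cd9 (131), Tspan13 (104), Cd37 (59.8), Cd81 (54.9), Tspan32 (22.8), Cd63 (21.2) and Cd151 (2.12) to Tspan9 (0.366); the ranges of Cd37 and Cd81, and of Tspan32 and Cd63, overlapped. With OVA it ran from Cd53 (555 TPM) through Cd82 (155.5), Cd37 (53.4), Tspan13 (49.8), Cd9 (30.1), Cd63 (20.7), Cd81 (9.17), Tspan9 (6.67) and Tspan32 (4.66) to Cd151 (1.70). There the ranges of Cd37 and Tspan13, of Cd9 and Cd63, and of each neighbouring pair from Cd81 to Cd151 overlapped. In control it ran from Cd53 (554 TPM) through Tspan13 (110.2), Cd37 (105), Cd82 (102), Cd9 (33.7), Tspan32 (32.9), Cd81 (22.1), Tspan9 (9.49) and Cd151 (2.79) to Cd63 (0.211), with overlap between Cd37 and Cd82 and between Cd9 and Tspan32.

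**Figure D3:**
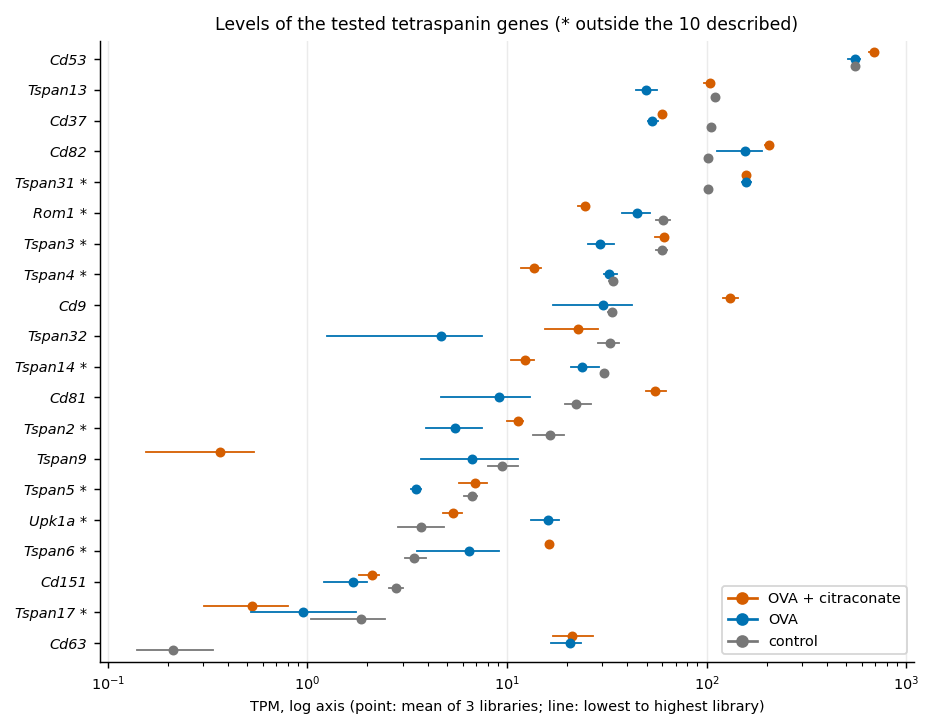
TPM (x axis, log) of the 20 tetraspanin genes that passed the filter, ordered by their control level; points are means of 3 libraries and lines run from the lowest to the highest library. Cd53 lies far above the rest, Cd63 and Tspan9 span the widest ranges between groups, and an asterisk marks genes outside the 10 described.

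A further 21 tetraspanin genes were in the table and 10 of them were tested. With OVA plus citraconate against OVA 4 of these rose, 4 fell and 2 did not pass, and with OVA against control 3 rose, 5 fell and 2 did not pass. Of all tested genes 37.8% were called higher and 21.2% lower in the first comparison, and 32.1% and 39.8% in the second. Tspan6 reached 16.15 ± 0.650 TPM with OVA plus citraconate, 6.43 ± 2.79 TPM with OVA and 3.42 ± 0.456 TPM in control (SD, n = 3), and rose in each comparison (limma adjusted p = 0.000993 for OVA plus citraconate against OVA). Its rise with OVA against control was weaker (limma adjusted p = 0.0233), with overlapping ranges of 3.56 to 9.12 TPM and 3.08 to 3.94 TPM. Tspan3 (60.8, 29.2 and 59.5 TPM in the same order), Tspan2 (11.3, 5.50 and 16.4 TPM) and Tspan5 (6.90, 3.48 and 6.67 TPM) were lowest with OVA: all 3 fell against control and rose with OVA plus citraconate against OVA. Tspan4 (13.7, 32.5 and 34.2 TPM), Tspan14 (12.3, 23.8 and 30.7 TPM) and Rom1 (24.5, 44.9 and 60.1 TPM) were lowest with OVA plus citraconate, and all 3 fell against OVA. TSPAN14 belongs to the group of tetraspanins that carry the protease ADAM10 to the surface, which was not examined as a set. Tspan31 averaged 157.5 ± 5.67 TPM with OVA plus citraconate and 157.5 ± 8.825 TPM with OVA against 101.5 ± 3.08 TPM in control, and Upk1a 5.38 ± 0.592, 16.1 ± 2.55 and 3.72 ± 1.04 TPM.

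Genes for proteins known to bind tetraspanins, listed from general knowledge, moved in both directions. The list shares Cd2, Cd8a and Cd8b1 with the T cell markers, Cr2 with the B cell markers and Epcam with the epithelial markers. Of 21 tested partners 11 rose and 5 fell with OVA plus citraconate against OVA, and 5 rose and 12 fell with OVA against control. The shares of all tested genes were 37.8% higher and 21.2% lower in the first comparison, and 32.1% and 39.8% in the second. Epcam, which encodes an epithelial adhesion protein, averaged 15.2 ± 1.74 TPM with OVA plus citraconate, 32.4 ± 7.23 TPM with OVA and 2.14 ± 0.621 TPM in control. The integrin gene Itga3 averaged 16.8 ± 0.627, 24.95 ± 1.92 and 7.23 ± 0.773 TPM in the same order, and Itgb2 642 ± 23.25, 699 ± 24.7 and 492 ± 14.95 TPM. Cd8b1, of the CD8 coreceptor, averaged 347 ± 31.4, 177 ± 47.8 and 601 ± 14.7 TPM. The EWI genes, direct partners of CD9 and CD81, were picked after their values were seen. Igsf8 (EWI-2) averaged 23.3 ± 1.95 TPM with OVA plus citraconate, 12.1 ± 3.51 TPM with OVA and 26.2 ± 2.37 TPM in control. Ptgfrn (EWI-F) averaged 6.925 ± 0.154, 2.80 ± 1.89 and 3.50 ± 0.888 TPM, and both rose with OVA plus citraconate against OVA (limma adjusted p = 0.000992 and 0.00763).

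Of 19 tested genes of vesicle release and lysosomes, 7 rose and 5 fell with OVA plus citraconate against OVA, and 10 rose and 6 fell with OVA against control. Among all tested genes, 37.8% rose and 21.2% fell in the first comparison, and 32.1% and 39.8% in the second. Rab27b, a GTPase of granule and vesicle release, averaged 0.638 ± 0.377 TPM with OVA plus citraconate, 5.56 ± 1.18 TPM with OVA and 1.84 ± 0.255 TPM in control. The lysosomal membrane gene Lamp2 averaged 13.9 ± 0.284, 21.3 ± 2.72 and 10.45 ± 0.434 TPM in the same order. The flotillin genes went the opposite way, with Flot2 at 77.55 ± 6.46, 35.0 ± 7.32 and 83.7 ± 3.35 TPM and Flot1 at 61.2 ± 0.896, 44.8 ± 2.86 and 64.8 ± 1.32 TPM. Tetraspanins are held in their patches in part by palmitate, which enzymes of the ZDHHC family attach. Of 19 tested ZDHHC genes 8 rose and 2 fell with OVA plus citraconate against OVA, and 6 rose and 8 fell with OVA against control. The shares of all tested genes (37.8% and 21.2%, then 32.1% and 39.8%) apply here too. Zdhhc8 averaged 37.2 ± 2.90 TPM with OVA plus citraconate, 21.95 ± 0.685 TPM with OVA and 54.2 ± 2.45 TPM in control, and Zdhhc18 71.9 ± 1.12, 47.0 ± 5.93 and 94.9 ± 2.74 TPM. Zdhhc5 (82.9, 83.95 and 53.2 TPM) and Zdhhc6 (53.9, 48.8 and 37.4 TPM) were lowest in control.

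**Figure D4:**
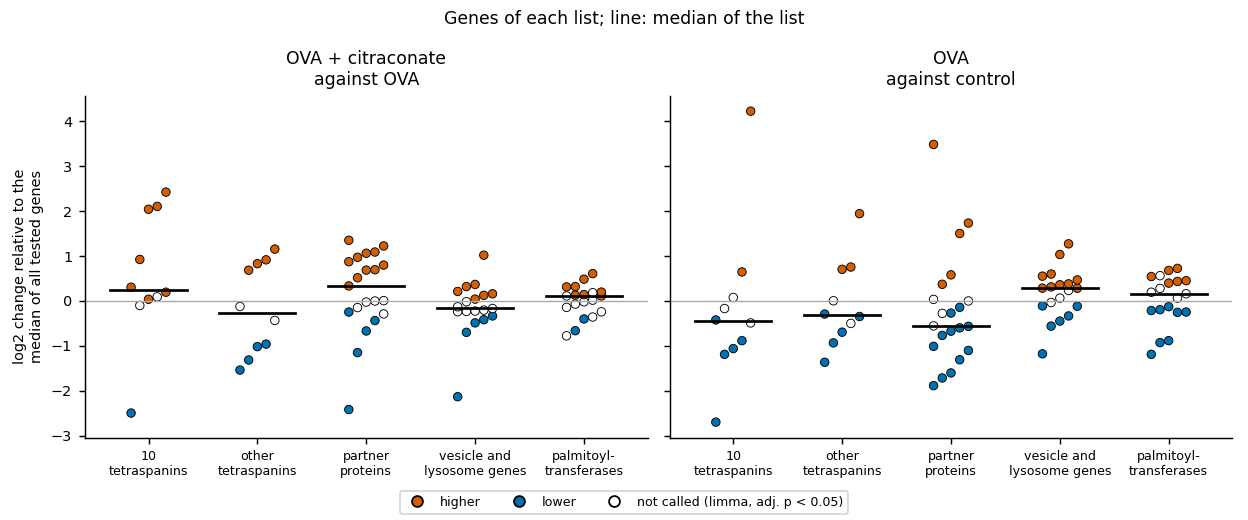
Log2 change of each tested gene relative to the median of all tested genes (y axis) for the 10 tetraspanins, the 10 other tested tetraspanins, 21 partners, 19 vesicle and lysosome genes and 19 palmitoyltransferases. The horizontal bar is the median of a list, 0.25 for the 10 tetraspanins in OVA plus citraconate against OVA and -0.46 in OVA against control.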

How the data were processed

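The deposited table holds TPM per gene and library; the authors named the file for FPKM, but each column sums to 1000000. The tools were Salmon and Trim Galore 0.5.0, with genome build GRCm39, per the submitters' processing notes; the labels do not name the annotation. Coordinates printed are therefore those of RefSeq's GRCm38.p6 windows only. Reads per gene were worked back as the smallest whole numbers that fit all 9 libraries, found for 16734 of 16734 genes above 0 in at least 2 libraries; a gene's reads can be too low by a common factor, and they served for depth, read ratios and 1 alternative. In limma 3.58.1 (R 4.3.3), log2(TPM + 1) of 11971 genes was fitted over all 9 libraries (eBayes with trend, two-sided), and genes were called at an adjusted p under 0.05. The steps were tested on simulated data. Named were all 10 members, from each other list the 4 genes with the smallest adjusted p, other tetraspanins reaching 5 TPM, and the markers. Members and lists were chosen with earlier results of these data known. There were 20 other settings.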

Additional observations from a re-analysis of the deposited data

How the results depend on the processing

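The counts of tetraspanins called in each direction and comparison stayed within 1.5 times under all 20 settings. The count of increases in OVA plus citraconate against OVA was 5 with the median of ratios, quantile normalization, granzyme genes left out or only the 2 groups compared. Over libraries left out in turn they were 6 to 7 higher and 1 lower for OVA plus citraconate against OVA, 2 higher and 5 to 6 lower for OVA against control, and 5 higher and 2 to 3 lower for OVA plus citraconate against control. Log2 values here are as fitted, before the median of all genes is taken off. Values that changed sign were not called in either form: Cd63 in OVA plus citraconate against OVA was -0.11 with the median of ratios, -0.10 with quantile normalization, -0.046 with granzyme genes left out, -0.012 with voom weights on recovered reads and -0.16 to 0.16 with libraries left out. For OVA against control, Cd53 ranged from -0.044 to 0.058 and Cd9 from -0.53, which was called, to 0.11 with libraries left out. Scaling shifted the share of calls that were increases among all genes in OVA plus citraconate against OVA, 64.0% as deposited and 49.2% with the median of ratios. The members with the lowest levels moved most: Cd63 in OVA against control was 2.29 and 6.10 with pseudocounts of 5 and 0.1 TPM and 6.28 with voom on recovered reads, and Tspan9 in OVA plus citraconate against OVA was -1.07, -3.80 and -4.16 in the same order. The calls that changed, of Cd9, Cd37, Cd82, Cd151, Tspan9 and Tspan32, are given beside their genes; with the median of ratios Cd37 was 0.03 and Cd82 0.30 in OVA plus citraconate against OVA. Cd151 was not tested under the 5 TPM filter. Same-numbered libraries did not deviate together in every pair (r of -0.01 to 0.30 over all tested genes), so the numbers were not taken as pairs. Between OVA plus citraconate and OVA, r was 0.05, 0.30 and 0.14 for replicates 1, 2 and 3. Libraries of unlike number in these groups gave r of -0.25 to 0.17. With the replicate number as a block 7 members were higher and 1 lower in OVA plus citraconate against OVA, and 0 of 30 member calls changed. The cause of the changes was not tested.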

Other observations

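Genes with the course most like each tetraspanin, by the root mean square difference of centred log2(TPM + 1) over the 9 libraries among 9103 genes, are given as a description. For Cd9 they were Plk2 (difference 0.126; 50.7 TPM with OVA plus citraconate, 11.2 TPM with OVA and 13.85 TPM in control) and Itm2a (0.176; 207, 40.2 and 50.5 TPM). For Cd81 they were Adgrl1 (0.131; 19.4, 2.585 and 8.36 TPM) and Pls1 (0.173), and for Cd63 Nr4a3 (0.172; 44.4, 44.1 and 1.95 TPM) and Serpinb9 (0.182; 248.5, 276 and 12.2 TPM). Nr4a3 is an early response factor of receptor signalling, and SERPINB9 inhibits granzyme B. For Tspan9 the nearest gene was Tcrg-C4 (0.341) and then Ifitm1 (0.360; 355, 1704 and 3036 TPM), an interferon-induced gene whose human protein was found in a complex with CD81. For Tspan13 they were Inpp5k (0.059) and Ccni (0.067), for Tspan32 Abca3 (0.230) and Ifi203 (0.283), for Cd53 Sf3a3 (0.033) and Nrd1 (0.043), for Cd37 Dyrk3 (0.050) and Mum1 (0.051), for Cd82 Tasp1 (0.104) and Fam3c (0.105), and for Cd151 Sirt6 (0.089) and Ccm2 (0.112).

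Among markers of other cells, myeloid and dendritic markers summed to 19.8 to 28.6 TPM with OVA plus citraconate, 25.8 to 30.6 TPM with OVA and 14.6 to 18.3 TPM in control. Cd68 averaged 14.2, 12.8 and 6.16 TPM in the same order, and Itgax 4.005, 5.71 and 6.96 TPM. Erythroid and platelet markers summed to 11.95 to 14.6, 4.36 to 5.73 and 8.70 to 9.88 TPM in the same order, most of it Hbb-bt. Stromal and epithelial markers summed to 17.2 to 19.9, 45.1 to 66.2 and 6.61 to 8.62 TPM. Among them Cdh1 averaged 2.05, 19.8 and 1.89 TPM and, with Epcam, was called higher with OVA against control. Krt18 averaged 0.508, 0.174 and 3.13 TPM and was called lower there (limma adjusted p = 1.75e-05). As Krt18 passed the filter on low values only through control, that fall follows in part from its being tested. The 5 genes annotated with exons across those of a member on the other strand (Gm26728, Tead2, R74862, Gm10575 and Tspan32os) stood at 0.771 TPM or less in every library.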
